A study of Mus musculus with 28 samples.

Results

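Chemokines are small secreted proteins that set the direction in which leukocytes move. They are named by the spacing of their first cysteines (CC, CXC, CX3C and XC) and act through G-protein-coupled receptors that each bind a group of ligands. Ligands with an ELR sequence that bind CXCR2 draw neutrophils, CCR2 ligands draw monocytes, several CC ligands such as CCL3 and CCL5 draw monocytes and T cells, CXCR3 ligands draw activated T and NK cells, and CXCL12 and CXCL13 hold cells in bone marrow, tissue and lymphoid follicles. In the fatty, inflamed liver, Kupffer cells, recruited macrophages, hepatocytes and endothelium are all known sources, and several of the genes are induced by NF-κB or by interferons.

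The chemokine ligand genes were all protein-coding genes of the deposited tables whose symbol starts with Ccl, Cxcl, Cx3cl or Xcl and a digit. This gave 44 genes with 39 symbols, since 9 identifiers share a symbol with another copy (Ccl19, Ccl21a, Ccl21b and Ccl27). FPKM counts fragments per kilobase of exon, divided by a scaling total of the library. Of the 44 genes, 26 reached 0.5 FPKM in at least 3 libraries of a tissue at 40 d and are described here. That was 22 genes in liver and 19 in muscle, 15 of them in both. Cxcl1, Cxcl2, Cxcl5, Cxcl10, Ccl3, Ccl4 and Xcl1 reached the level in liver only, and Ccl11, Ccl17, Ccl21a and Ccl25 in muscle only. The other 18 stayed below it, and 2 of these had 0 reads in all 24 libraries at 40 d. Just inside the limit were Cxcl2 in liver (4 libraries) and Ccl17 in muscle (4), and just outside were Ccl17 and Ccl21a in liver and Cxcl10 in muscle (2 each). A gene had to be detected to be described, so the 26 are not all chemokine genes. Cxcl11, a CXCR3 ligand annotated as a polymorphic pseudogene, fell outside the rule and lay between 0.0697 and 0.463 FPKM in the 28 libraries.

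The RNA came from livers and muscles of male Lepob/Lepob C57BL/6J mice, which lack leptin, eat without restraint and become obese. From 4 weeks of age all of them ate the AMLN diet, with 40% of calories from fat (18.5% from trans-fat), 20% from fructose, and 2% cholesterol by weight, for 20 weeks, which makes them a model of steatohepatitis. They kept the diet while they were injected intraperitoneally each day with aspirin at 3.0 mg/kg/day together with trimetazidine at 5.0 mg/kg/day (the treated group), or with solvent (the vehicle group). Aspirin acetylates cyclooxygenases, and trimetazidine inhibits mitochondrial fatty acid β-oxidation. There were 6 treated and 6 vehicle mice in each tissue at 40 d, and 1 treated and 1 vehicle library of each tissue at 24 h. Neither drug alone, lean mice nor mice on normal diet were analysed here, so the comparison is of the 2 drugs together with solvent in obese, diet-fed mice. The labels number the libraries, and the first digit of the number is 4 or 5 in treated mice and 2, 3 or 6 in vehicle mice, so whatever follows this digit and the treatment cannot be told apart.

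Between 16.8 and 18.9 M reads fell on genes in each liver library of the 40 d table, between 16.1 and 19.9 M in each muscle library, and between 16.1 and 17.4 M in each library at 24 h. At 40 d the summed FPKM of 6 hepatocyte markers was 22601 to 38706 in treated livers and 31772 to 37150 in vehicle livers, and that of 7 muscle fibre markers was 33862 to 50255 in treated muscles and 29902 to 56748 in vehicle muscles, against at most 4.0 in any liver. Muscle libraries at 40 d also carried 6 adipocyte markers, with sums of 279.8 to 1979 FPKM in treated and 481 to 1498 FPKM in vehicle muscles, lowest in treated muscle 5_2. At 24 h the hepatocyte sum was 42424 FPKM in the treated liver and 35025 FPKM in the vehicle liver. Treated library 4_5 stood apart in both tissues at 40 d, and results that rest on it are given with and without it. In liver 4_5 at 40 d the summed FPKM was 492 for 12 neutrophil markers, 1985 for 12 monocyte and macrophage markers and 1076 for 8 Kupffer cell markers. The 5 other treated livers reached at most 129, 1301 and 441 FPKM for the same lists, and the vehicle livers at 40 d at most 20.7, 854 and 350.4 FPKM. At 24 h these sums were 41.8, 1327 and 312 FPKM in the treated liver and 33.9, 1693 and 268 FPKM in the vehicle liver.

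Stretches before the transcription start are printed for 7 genes whose values differ most between libraries or times, or that share sequence letters. They come from RefSeq on GRCm38.p6, where 18 of the 26 symbols have an entry, and are read 5′ to 3′ on the gene's strand. Capitals mark matches, on either strand, to GGGANTTTC or GGAANTTCC (κB-like, the kind of site NF-κB binds), GAAANNGAA (interferon-response-like) and TATAAA (where a core promoter binds the TATA-binding protein). The 2 κB-like patterns overlap where both match.
Cxcl1: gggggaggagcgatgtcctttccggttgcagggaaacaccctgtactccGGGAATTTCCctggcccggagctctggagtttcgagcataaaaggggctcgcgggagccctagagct
Cxcl2: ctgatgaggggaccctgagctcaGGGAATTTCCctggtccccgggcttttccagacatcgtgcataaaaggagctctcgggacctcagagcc
Ccl8: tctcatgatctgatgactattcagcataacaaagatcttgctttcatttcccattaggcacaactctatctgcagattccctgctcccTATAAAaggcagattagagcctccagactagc
Ccl12: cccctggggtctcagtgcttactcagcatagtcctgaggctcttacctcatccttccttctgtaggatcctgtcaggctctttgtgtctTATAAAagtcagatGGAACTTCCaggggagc
Cxcl13: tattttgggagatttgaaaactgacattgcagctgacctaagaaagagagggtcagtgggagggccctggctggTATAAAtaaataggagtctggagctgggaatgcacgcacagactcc
Cxcl9: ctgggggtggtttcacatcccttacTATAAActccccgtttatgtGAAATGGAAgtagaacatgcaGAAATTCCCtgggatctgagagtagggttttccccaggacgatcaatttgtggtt
Cxcl10: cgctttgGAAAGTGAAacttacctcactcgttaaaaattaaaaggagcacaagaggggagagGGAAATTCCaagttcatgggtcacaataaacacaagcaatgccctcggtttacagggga
The stretches lie at chr5:90891125-90891240 (+ strand) for Cxcl1, chr5:90903779-90903870 (+ strand) for Cxcl2, chr11:82115065-82115184 (+ strand) for Ccl8, chr11:82101725-82101844 (+ strand) for Ccl12, chr5:95956819-95956938 (+ strand) for Cxcl13, chr5:92328179-92328299 (- strand) for Cxcl9 and chr5:92348989-92349109 (- strand) for Cxcl10. Cxcl1 and Cxcl2 are neighbours on chromosome 5 and carry the same run of letters, GGGAATTTCC, from base −71 in Cxcl1 and from base −97 in Cxcl2, counted back from the RefSeq start. Ccl8 and Ccl12 are neighbours on chromosome 11 and both have the letters TATAAA, which start at base −32 in Ccl8 and at base −31 in Ccl12. Of the 18 genes, 5 (27.8%) held a κB-like match in the RefSeq window around the start (Cxcl1, Cxcl2, Cxcl9, Cxcl10 and Ccl12), against 605 of 27025 genes (2.24%) overall. An interferon-response-like match was present in 4 (22.2%, against 9.76% of all genes), TATAAA in 7 (38.9%, against 15.7%) and TTNNGNAA, a C/EBP-like pattern not marked in the stretches, in 8 (44.4%, against 44.1%). These are matches of letters only, at any position in the window, with no measurement of binding. Windows were assigned by symbol. The Ccl21a window, among the 8 with TTNNGNAA, lies on chromosome 4 beside another Ccl21a identifier, not the scaffold identifier described here. The TATAAA marked in Cxcl9 starts at base −195, farther from the start than those of Ccl8 and Ccl12, so a match need not be a core promoter element.

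No chemokine ligand gene changed at 40 d by limma's test with adjustment over all genes. In liver 0 of 22 were called, against 0.232% of the 13766 genes tested (32 genes, and 0 to 80 when 1 library was left out). At an unadjusted p under 0.05, 5 of the 22 were higher in treated livers (Cxcl12, Ccl8, Ccl12, Ccl4 and Cxcl1), against 6.18% of all genes, and 0 were lower, against 6.64%. A voom fit on the recovered reads also called 0, against 0.276% of all genes, and put 5 higher at that unadjusted level, against 5.83%. The exact permutation test put 4 higher (Cxcl12, Ccl8, Ccl12 and Ccl4), against 6.15%. The log2 fold change was positive for 16 of the 22 (72.7%) with a median of 0.18, where 50.3% of all genes were positive with a median of 0.00. These counts are a description, since Ccl12 (4 treated and 2 vehicle livers at 0.5 FPKM or more) and Cxcl2 (3 treated and 1 vehicle) reached 3 libraries of a group only among treated livers, and Cxcl13 (2 treated and 3 vehicle) only among vehicle livers. Of the 19 genes that reached it in 3 livers of both groups, 4 were higher at the unadjusted level and 13 (68.4%) were positive. In muscle 0 of 19 were called, as were 0.0% of the 14388 genes tested. There, 0 of the 19 had an unadjusted p under 0.05, against 4.14% of all genes, the exact permutation test also put 0 there, against 4.32%, and voom called 0. The log2 fold change was positive for 12 of the 19 with a median of 0.09 (11 of the 17 that reached 0.5 FPKM in 3 muscles of both groups, without Ccl5 and Ccl17), where 49.8% of all genes were positive with a median of 0.00.

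No gene separated the groups. In liver 0 of 22 genes, against 1.13% of all, and in muscle 0 of 19, against 0.243%, had every treated value on one side of every vehicle value. The effects of treatment in liver and muscle were compared for the 15 genes tested in both. Of these, 0 differed, against 0.00855% of 11692 genes, and 0 had an unadjusted p under 0.05, against 5.64%. In bulk tissue, fewer cells of a type and less RNA per cell cannot be told apart.

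**Figure D1:**
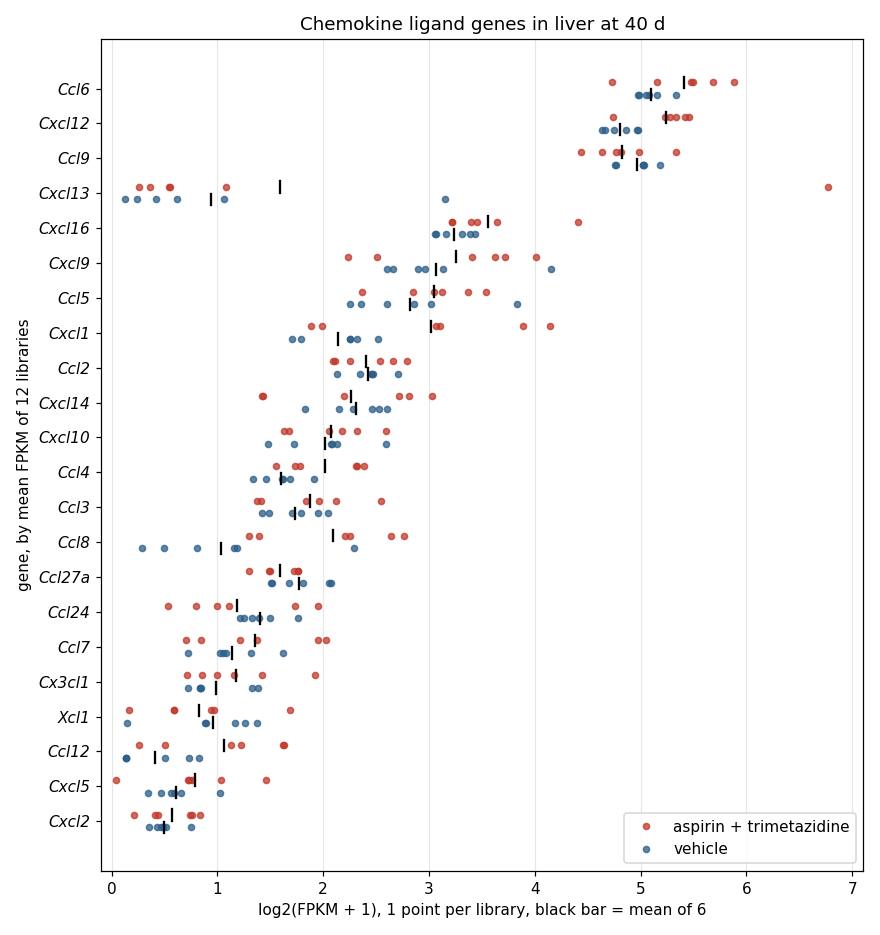
Each point is the log2(FPKM + 1) of 1 of 22 chemokine ligand genes in 1 liver at 40 d, with 6 treated (red, upper row) and 6 vehicle (blue, lower row) libraries and a black bar at each mean. The groups overlap for every gene, and for Cxcl13 1 treated liver at 108 FPKM lies far from the 5 others.

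Ligands of CXCR2, which recruit neutrophils, were measurable in liver. Cxcl1 had 2.7 to 16.7 FPKM (median 7.49) in the 6 treated livers and 2.26 to 4.72 FPKM (median 3.77) in the 6 vehicle livers. Treated livers 5_3 (16.7 FPKM) and 5_5 (13.8) were the highest, 4_5 and 5_1 also lay above all vehicle livers, and 5_2 and 5_4 lay among them. The means were 8.53 ± 5.69 FPKM in treated livers and 3.5 ± 0.949 FPKM in vehicle livers, a log2 fold change of 0.87 (SE 0.36, adjusted p = 0.335). Cxcl5, another ELR chemokine, averaged 0.805 ± 0.565 FPKM in treated livers and 0.542 ± 0.266 FPKM in vehicle livers, and Cxcl2, the neighbour of Cxcl1, 0.501 ± 0.25 FPKM in treated livers and 0.42 ± 0.137 FPKM in vehicle livers, with adjusted p = 0.727 and 0.842. The 2 genes that share the κB-like run thus stood at different levels, with Cxcl2 at most 0.787 FPKM in any liver. At 24 h liver Cxcl1 was 31.4 FPKM in the treated liver and 6.42 FPKM in the vehicle liver, ratio 4.9 (95% counting interval 4.19 to 5.76), from 830 and 195 reads. Cxcl2 was 0.275 FPKM in the treated liver and 0.388 FPKM in the vehicle liver and Cxcl5 was 0.457 FPKM in the treated liver and 0.728 FPKM in the vehicle liver. In muscle, Cxcl1 was under 0.5 FPKM in 11 of 12 libraries at 40 d, the exception being treated 4_5 (1.9 FPKM), and at 24 h it was 1.49 FPKM in the treated muscle and 0.474 FPKM in the vehicle muscle.

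The summed level of neutrophil markers was higher in treated livers. The sum of the 12 markers, among them S100a8, S100a9, Ly6g and Cxcr2, was 35.7 to 492 FPKM in treated livers (median 93.3). In vehicle livers it was 14.1 to 20.7 FPKM (median 16.7), with no overlap between the groups. Of the single genes tested in liver, 1.13% did not overlap, and the sum itself was not tested. Of the 12 markers, 10 reached 0.5 FPKM in 3 treated livers and 4 in 3 vehicle livers, and none was at 0 in a whole group of livers. In muscle the sums were 12.4 to 63.9 FPKM in treated and 6.36 to 14.1 FPKM in vehicle libraries, with Mpo at 0 in all treated muscles. At 24 h they were 41.8 FPKM in the treated and 33.9 FPKM in the vehicle liver. S100a9 and S100a8 held 19.7 and 12.6 FPKM of this in the treated liver, and 16.2 and 7.2 FPKM in the vehicle liver. The part of neutrophils in the chemokine values was not tested.

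CCR2 ligands draw monocytes out of the blood. The genes listed here as CCR2 ligands (Ccl2, Ccl7, Ccl8 and Ccl12) lie in 1 cluster on chromosome 11 that also holds Ccl11. They took different values, and the receptor that each product binds in these tissues was not measured. Ccl8 in liver had 1.46 to 5.81 FPKM (median 3.69) in the 6 treated livers and 0.218 to 3.91 FPKM (median 0.992) in the 6 vehicle livers. The mean of the vehicle livers was exceeded in every treated liver, but only 2 lay above vehicle liver 2_1 (3.91 FPKM), so the groups overlapped. The means were 3.58 ± 1.79 FPKM in treated livers and 1.3 ± 1.35 FPKM in vehicle livers, a log2 fold change of 1.05 (SE 0.34, adjusted p = 0.227). Ccl12 had 0.198 to 2.09 FPKM (median 1.26) in the 6 treated livers and 0.0974 to 0.779 FPKM (median 0.259) in the 6 vehicle livers, and 4 of 6 treated livers lay above all vehicle livers. Its means were 1.21 ± 0.799 FPKM in treated livers and 0.36 ± 0.308 FPKM in vehicle livers, a log2 fold change of 0.65 (SE 0.24, adjusted p = 0.288). It rested on 92 reads over the 12 livers and Ccl8 on 270, so counting error is part of their spread. Ccl2 (MCP-1), the main CCR2 ligand, averaged 4.4 ± 1.11 FPKM in treated livers and 4.42 ± 0.708 FPKM in vehicle livers, with an interval of the log2 fold change of −0.31 to 0.27. Ccl7 averaged 1.71 ± 1.04 FPKM in treated livers and 1.24 ± 0.485 FPKM in vehicle livers (adjusted p = 0.734).

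At 24 h liver Ccl8 was 3.89 FPKM in the treated liver and 0.604 FPKM in the vehicle liver (28 and 5 reads), ratio 6.45 (95% counting interval 2.46 to 21.4), and Ccl12 was 1.06 FPKM in the treated liver and 0.23 FPKM in the vehicle liver (8 and 2 reads). Ccl2 was 6.86 FPKM in the treated liver and 5.69 FPKM in the vehicle liver, and Ccl7 was 2.13 FPKM in the treated liver and 1.46 FPKM in the vehicle liver, with counting intervals that cover equality. In the muscle table, which was normalized apart from that of liver, Ccl8 had 8.64 to 66.5 FPKM (median 38.8) in the 6 treated muscles and 17.1 to 34.5 FPKM (median 20.8) in the 6 vehicle muscles at 40 d. The 4 highest treated muscles lay above all vehicle muscles and treated 5_2 (8.64 FPKM) below them all, and the log2 fold change of 0.53 (SE 0.38, adjusted p = 0.999) became 0.89 without 5_2, with adjusted p = 0.706. At 24 h the order was the other way, with muscle Ccl8 at 51.8 FPKM in the treated muscle and 107 FPKM in the vehicle muscle, ratio 0.482 (95% counting interval 0.427 to 0.544). Ccl7 had 1.32 to 4.37 FPKM (median 2.03) in the 6 treated muscles and 0.484 to 2.75 FPKM (median 1.32) in the 6 vehicle muscles and the smallest unadjusted p of the muscle genes (0.0585), a log2 fold change of 0.50 (SE 0.24, adjusted p = 0.999). Its highest values were in treated muscles 4_5 and 5_5, and the other 4 lay within the vehicle range. Muscle Ccl2 averaged 1.55 ± 1.23 FPKM in treated muscles and 1.21 ± 0.353 FPKM in vehicle muscles and muscle Ccl12 0.781 ± 0.319 FPKM in treated muscles and 0.963 ± 0.819 FPKM in vehicle muscles. At 24 h muscle Ccl2 was 3.34 FPKM in the treated muscle and 3.62 FPKM in the vehicle muscle, Ccl7 was 6.82 FPKM in the treated muscle and 5.07 FPKM in the vehicle muscle, and Ccl12 was 3.97 FPKM in the treated muscle and 3.54 FPKM in the vehicle muscle. The difference between the effects in liver and muscle was 0.71 (95% interval −0.02 to 1.43, adjusted p = 0.883) for Ccl12 and 0.52 (95% interval −0.57 to 1.62, adjusted p = 0.996) for Ccl8.

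The inflammatory CC ligands Ccl3, Ccl4, Ccl5, Ccl6 and Ccl9, which attract monocytes, neutrophils or T cells, included the chemokine ligand gene with the highest mean FPKM over the 12 livers, Ccl6. Ccl6, a CCR1 ligand found in rodents, had 25.6 to 58.1 FPKM (median 43.9) in the 6 treated livers and 30.6 to 39.3 FPKM (median 32.5) in the 6 vehicle livers, with 4 treated livers above and 5_2 below all vehicle livers and a log2 fold change of 0.31 (SE 0.16, adjusted p = 0.452). Ccl9, a related rodent chemokine, had 20.7 to 39.3 FPKM (median 26.7) in the 6 treated livers and 26 to 35.3 FPKM (median 31.5) in the 6 vehicle livers and a log2 fold change of −0.13 (SE 0.13, adjusted p = 0.713), which became −0.06 without 5_2. Treated 4_5 was the highest of the 12 livers in both genes, and treated 5_2 the lowest. Ccl4 (MIP-1β) had 1.94 to 4.24 FPKM (median 3.21) in the 6 treated livers and 1.52 to 2.77 FPKM (median 2.06) in the 6 vehicle livers, with 3 treated livers above all vehicle livers. Its means were 3.15 ± 1.02 FPKM in treated livers and 2.07 ± 0.428 FPKM in vehicle livers, a log2 fold change of 0.41 (SE 0.15, adjusted p = 0.292). Ccl3 (MIP-1α) averaged 2.82 ± 1.2 FPKM in treated livers and 2.37 ± 0.578 FPKM in vehicle livers, and Ccl5 (RANTES), made by T and NK cells among others, 7.56 ± 2.29 FPKM in treated livers and 6.6 ± 3.49 FPKM in vehicle livers. Neither passed the test (adjusted p = 0.795 and 0.75).

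In muscle Ccl6 had 14.5 to 48.6 FPKM (median 30.6) in the 6 treated muscles and 18.5 to 45.1 FPKM (median 23.5) in the 6 vehicle muscles and Ccl9 averaged 9.12 ± 3.9 FPKM in treated muscles and 9.29 ± 3.65 FPKM in vehicle muscles, with adjusted p = 0.999 for both. Muscle Ccl5 averaged 1.04 ± 0.692 FPKM in treated muscles and 0.839 ± 0.701 FPKM in vehicle muscles. At 24 h liver Ccl3 was 1.48 FPKM in the treated liver and 4.35 FPKM in the vehicle liver (16 and 54 reads), ratio 0.341 (95% counting interval 0.182 to 0.605), and thus lower in the treated library. Liver Ccl4 was 2.37 FPKM in the treated liver and 3.27 FPKM in the vehicle liver and liver Ccl5 12.2 FPKM in the treated liver and 17.5 FPKM in the vehicle liver. In muscle Ccl5 was 4.44 FPKM in the treated muscle and 1.52 FPKM in the vehicle muscle, ratio 2.92 (95% counting interval 1.79 to 4.93), the reverse order. Ccl6 was 23.3 FPKM in the treated liver and 20.5 FPKM in the vehicle liver, and 65.3 FPKM in the treated muscle and 58.3 FPKM in the vehicle muscle. Ccl9 was 25.6 FPKM in the treated liver and 20.2 FPKM in the vehicle liver, and 21.9 FPKM in the treated muscle and 19.6 FPKM in the vehicle muscle. The sum of monocyte and macrophage markers was 495 to 1985 FPKM in treated livers (median 823) and 521 to 854 FPKM in vehicle livers (median 742), lowest in 5_2 and highest in 4_5 as for Ccl6 and Ccl9. None of these markers was at 0 in a whole group, and their part in the values was not tested. The sum was not weighted, and Lyz2 and Spp1 made up most of it at 24 h. They had 583.6 and 604.7 of 1327 FPKM in the treated liver and 787.2 and 752.7 of 1693 FPKM in the vehicle liver. Spp1 was also listed as a cholangiocyte marker, so the sum is not a measure of macrophages alone.

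CXCL12, CXCL14 and CXCL16 are made in resting tissue. Cxcl12, the ligand of CXCR4 that retains leukocytes and progenitor cells, had the smallest p of all chemokine genes in liver. It had 25.7 to 43 FPKM (median 38.7) in the 6 treated livers and 23.9 to 30.4 FPKM (median 27) in the 6 vehicle livers. Of the treated livers, 5 lay between 36.5 and 43 FPKM, above every vehicle liver, and 4_5 (25.7 FPKM) lay among the vehicle livers. The means were 37.4 ± 6.22 FPKM in treated livers and 27.2 ± 2.88 FPKM in vehicle livers, a log2 fold change of 0.43 (SE 0.12, adjusted p = 0.166) with an exact permutation p of 0.0108 (two-sided, unadjusted). Without 4_5 the log2 fold change was 0.54 and the adjusted p was 0.0418, so this library decided whether Cxcl12 was called. In that setting 0.198% of 13648 genes (27) were called. At 24 h liver Cxcl12 was 80.3 FPKM in the treated liver and 89.2 FPKM in the vehicle liver, the opposite order, ratio 0.90 (95% counting interval 0.876 to 0.925). In muscle Cxcl12 had 21.6 to 35.1 FPKM (median 24.9) in the 6 treated muscles and 19.6 to 25 FPKM (median 22.5) in the 6 vehicle muscles, a log2 fold change of 0.18 (SE 0.12, adjusted p = 0.999), which became 0.09 without treated 5_2 (35.1 FPKM), the highest. The difference between the effects in liver and muscle was 0.25 (95% interval −0.09 to 0.60, adjusted p = 0.958). At 24 h muscle Cxcl12 was 22.5 FPKM in the treated muscle and 28.2 FPKM in the vehicle muscle.

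Cxcl14, a chemokine of epithelium and muscle, had the highest mean FPKM of the 19 genes over the 12 muscles at 40 d, with 28.9 to 56.1 FPKM (median 35.9) in the 6 treated muscles and 41.5 to 58 FPKM (median 45.5) in the 6 vehicle muscles. Of the treated muscles, 4 lay below all vehicle muscles, while 5_1 and 5_3 lay within their range, and the log2 fold change of −0.26 (SE 0.16, adjusted p = 0.999) did not pass the test. Its liver means were 4.29 ± 2.32 FPKM in treated livers and 4.03 ± 0.947 FPKM in vehicle livers. At 24 h it was 8.24 FPKM in the treated liver and 7.26 FPKM in the vehicle liver, and 55.8 FPKM in the treated muscle and 53.9 FPKM in the vehicle muscle. Cxcl16, a membrane-bound ligand of CXCR6 that also takes up oxidized lipoproteins, had 8.28 to 20.2 FPKM (median 9.74) in the 6 treated livers and 7.31 to 9.79 FPKM (median 8.42) in the 6 vehicle livers. Treated 4_5 (20.2 FPKM) stood apart, the others reached at most 11.5 FPKM, and the log2 fold change of 0.32 (SE 0.18, adjusted p = 0.473) became 0.15 without 4_5. Kupffer cell markers were also highest in 4_5, at 1076 FPKM, against 324 to 441 FPKM in the other treated and 295 to 350.4 FPKM in the vehicle livers, with none at 0 in a whole group, and their part was not tested. Muscle Cxcl16 averaged 1.21 ± 0.471 FPKM in treated muscles and 0.997 ± 0.173 FPKM in vehicle muscles, and at 24 h it was 2.36 FPKM in the treated muscle and 1.36 FPKM in the vehicle muscle, ratio 1.73 (95% counting interval 1.26 to 2.39). Liver Cxcl16 was 15.2 FPKM in the treated liver and 16.3 FPKM in the vehicle liver at 24 h. Of the exonic bases of Cxcl16, 18.3% are shared with Zmynd15 on the other strand, and the use of strand in counting was not stated. For the same reason Xcl1 (18.7%, Gm20743), Cxcl10 (5.91%, Art3), Ccl25 (2.74%, Elavl1) and Ccl27a (0.337%, Il11ra1) may hold reads of a neighbour.

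**Figure D2:**
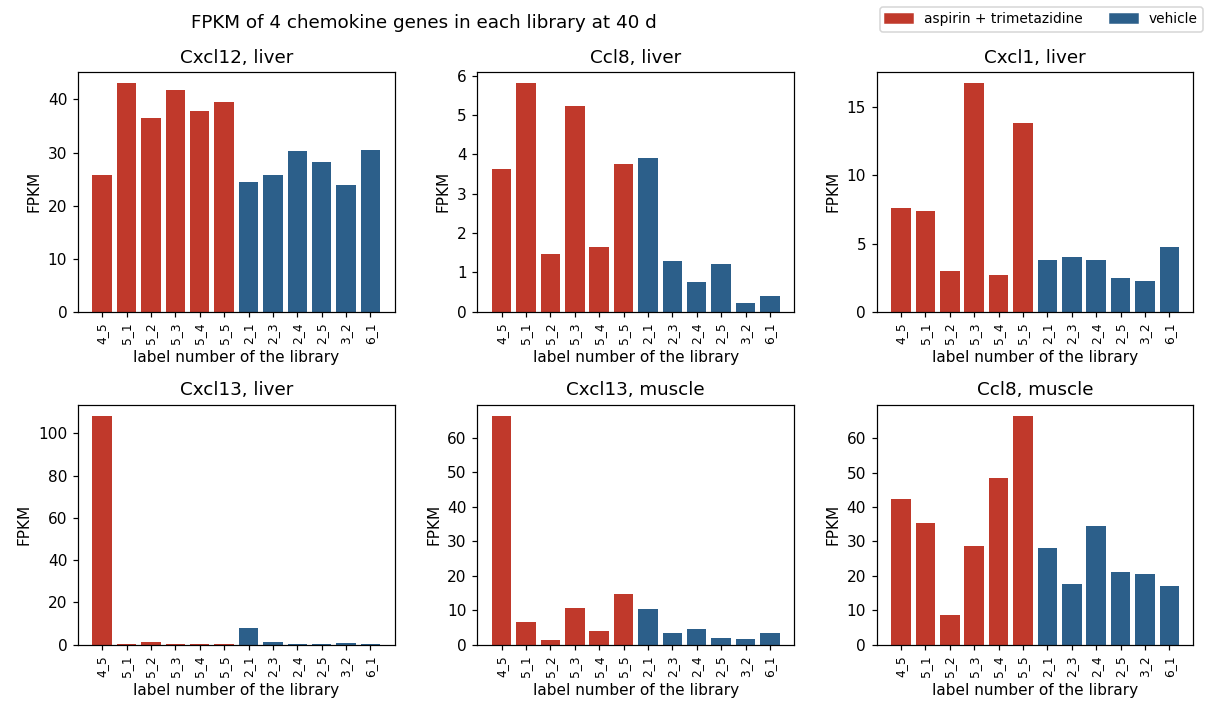
FPKM in each library at 40 d, labelled by number, for Cxcl12, Ccl8, Cxcl1 and Cxcl13 in liver and Cxcl13 and Ccl8 in muscle, treated in red to the left of vehicle in blue. Cxcl12 is 36.5 to 43 FPKM in 5 treated livers, and Cxcl13 has its tallest bar in 4_5 in both tissues.

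Of the ligands that organise lymphoid tissue, Cxcl13 was tested in both tissues and Ccl21a in muscle. Cxcl13, which calls B cells and follicular T cells through CXCR5, had 108 FPKM in treated liver 4_5 and 0.194 to 1.11 FPKM in the 5 other treated livers, against 7.89 FPKM in vehicle liver 2_1 and 0.091 to 1.09 FPKM in the 5 other vehicle livers. Its log2 fold change of 0.66 (SE 1.0, adjusted p = 0.825) became −0.38 without 4_5. In muscle it had 1.32 to 66.4 FPKM (median 8.55) in the 6 treated muscles and 1.52 to 10.3 FPKM (median 3.25) in the 6 vehicle muscles, again highest in 4_5 (66.4 FPKM). The log2 fold change of 1.17 (SE 0.65, adjusted p = 0.999) became 0.63 without 4_5. The 2 libraries with the most Cxcl13 among vehicle samples, liver and muscle, also had the same number, 2_1 (7.89 and 10.3 FPKM). In 4_5 Cxcl13 made up 34% of the summed FPKM of the genes reported in liver and 22.7% in muscle. The summed FPKM of 5 B and plasma cell markers in treated livers was 2.32 to 14.7, with 10.2 in 4_5, and 1.47 to 4.3 in vehicle livers, with no marker at 0 in a whole group, and its part was not tested.

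At 24 h liver Cxcl13 was 5.31 FPKM in the treated liver and 1.18 FPKM in the vehicle liver (86 and 22 reads), ratio 4.5 (95% counting interval 2.79 to 7.55), while muscle Cxcl13 was 6.2 FPKM in the treated muscle and 7.95 FPKM in the vehicle muscle. Ccl21a, a CCR7 ligand of lymphatic vessels that guides dendritic cells, was counted on an identifier on a scaffold outside the chromosomes, and near-identical copies on other identifiers make its values uncertain. In muscle it had 1.42 to 10.8 FPKM (median 4.5) in the 6 treated muscles and 0.882 to 5.89 FPKM (median 4.05) in the 6 vehicle muscles, a log2 fold change of 0.27 (SE 0.38, adjusted p = 0.999), which became 0.03 without vehicle 2_1. At 24 h it was 4.31 FPKM in the treated muscle and 18 FPKM in the vehicle muscle (26 and 114 reads), ratio 0.24 (95% counting interval 0.15 to 0.369). Summed FPKM of 4 lymphatic markers at 24 h was 5.11 in the treated and 6.97 in the vehicle muscle.

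Ligands of CXCR3, which are induced by interferon-γ and draw T and NK cells, did not pass the test in either tissue. Liver Cxcl9 had 3.7 to 15.2 FPKM (median 10.5) in the 6 treated livers and 5.08 to 16.9 FPKM (median 6.61) in the 6 vehicle livers, and the highest value was that of vehicle liver 2_3 (16.9 FPKM). Its log2 fold change of 0.18 (SE 0.33, adjusted p = 0.856) became 0.40 without 2_3. Liver Cxcl10 averaged 3.34 ± 1.12 FPKM in treated livers and 3.16 ± 1.12 FPKM in vehicle livers, and muscle Cxcl9 1.17 ± 0.227 FPKM in treated muscles and 1.28 ± 0.569 FPKM in vehicle muscles. At 24 h muscle Cxcl9 was 7.95 FPKM in the treated muscle and 1.89 FPKM in the vehicle muscle (360 and 90 reads), ratio 4.2 (95% counting interval 3.33 to 5.35), and muscle Cxcl10 0.858 FPKM in the treated muscle and 0.282 FPKM in the vehicle muscle (29 and 10 reads). Liver Cxcl9 was 8.12 FPKM in the treated liver and 7.28 FPKM in the vehicle liver and liver Cxcl10 1.95 FPKM in the treated liver and 1.95 FPKM in the vehicle liver. Beside the muscle values, the summed FPKM of 11 T and NK cell markers was 9.15 in the treated and 3.43 in the vehicle muscle at 24 h, and that of 5 B and plasma cell markers 20.2 in the treated and 1.89 in the vehicle muscle. The 2 muscle libraries also differed in other markers, with sums of 3189 FPKM in the treated and 1598 FPKM in the vehicle muscle for adipocytes, 25820 FPKM in the treated and 38987 FPKM in the vehicle muscle for muscle fibres, and 17.6 FPKM in the treated and 122 FPKM in the vehicle muscle for hepatocytes. With 1 library each, the part of any of these in the 24 h values was not tested.

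Eotaxins draw eosinophils through CCR3. Ccl11 (eotaxin-1) had 17 to 41.9 FPKM (median 25.9) in the 6 treated muscles and 24.2 to 33.6 FPKM (median 31.1) in the 6 vehicle muscles, and in the liver table, normalized on its own, it reached at most 0.258 FPKM at 40 d. Treated values lay on both sides of the vehicle range, with a log2 fold change of −0.15 (SE 0.18, adjusted p = 0.999), which became −0.02 without treated 5_5. Ccl24 (eotaxin-2) had 1.79 to 4.92 FPKM (median 2.91) in the 6 treated muscles and 2.54 to 5.71 FPKM (median 4.03) in the 6 vehicle muscles, and 5 of 6 treated libraries lay below the vehicle mean, with a log2 fold change of −0.31 (SE 0.19, adjusted p = 0.999). In liver it averaged 1.42 ± 0.96 FPKM in treated livers and 1.67 ± 0.394 FPKM in vehicle livers (adjusted p = 0.705), with 4 treated livers below all vehicle livers and 5_2 (2.88 FPKM) above them. At 24 h Ccl11 was 47.2 FPKM in the treated muscle and 40.9 FPKM in the vehicle muscle, and Ccl24 was 10.4 FPKM in the treated muscle and 10.7 FPKM in the vehicle muscle and 2.41 FPKM in the treated liver and 2.0 FPKM in the vehicle liver.

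Of the remaining ligands, Ccl27a, a CCR10 ligand of skin, had 1.46 to 2.39 FPKM (median 2.06) in the 6 treated livers and 1.85 to 3.22 FPKM (median 2.35) in the 6 vehicle livers. The mean of the vehicle livers was above every treated value, and 3 treated livers lay below all vehicle livers, with a log2 fold change of −0.19 (SE 0.12, adjusted p = 0.554). In muscle it averaged 2.48 ± 0.533 FPKM in treated muscles and 2.37 ± 1.01 FPKM in vehicle muscles. Ccl25, a CCR9 ligand of thymus and gut, had 0.462 to 0.89 FPKM (median 0.621) in the 6 treated muscles and 0.451 to 0.621 FPKM (median 0.541) in the 6 vehicle muscles, a log2 fold change of 0.09 (SE 0.08, adjusted p = 0.999). Ccl17, a CCR4 ligand made by dendritic cells, had 0 to 0.641 FPKM (median 0.252) in the 6 treated muscles and 0.11 to 0.641 FPKM (median 0.474) in the 6 vehicle muscles, on 36 reads over the 12 muscles, a log2 fold change of −0.17 (SE 0.14, adjusted p = 0.999). Cx3cl1 (fractalkine), which is anchored on endothelium and binds CX3CR1, averaged 1.36 ± 0.795 FPKM in treated livers and 1.02 ± 0.42 FPKM in vehicle livers and 1.13 ± 0.213 FPKM in treated muscles and 1.08 ± 0.114 FPKM in vehicle muscles. Xcl1 (lymphotactin), made by T and NK cells, averaged 0.874 ± 0.729 FPKM in treated livers and 1.01 ± 0.535 FPKM in vehicle livers. At 24 h Xcl1 had 1 read in the treated and 16 reads in the vehicle liver (0.136 FPKM and 1.89 FPKM), ratio 0.0719 (95% counting interval 0.00172 to 0.463). Cx3cl1 was 4.48 FPKM in the treated liver and 5.63 FPKM in the vehicle liver, and 1.76 FPKM in the treated muscle and 0.969 FPKM in the vehicle muscle. Ccl27a was 3.05 FPKM in the treated liver and 3.66 FPKM in the vehicle liver, and 3.17 FPKM in the treated muscle and 3.15 FPKM in the vehicle muscle. Ccl25 and Ccl17 in the treated muscle were at 0.483 and 0.389 FPKM, and in the vehicle muscle at 0.563 and 0.864 FPKM.

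**Figure D3:**
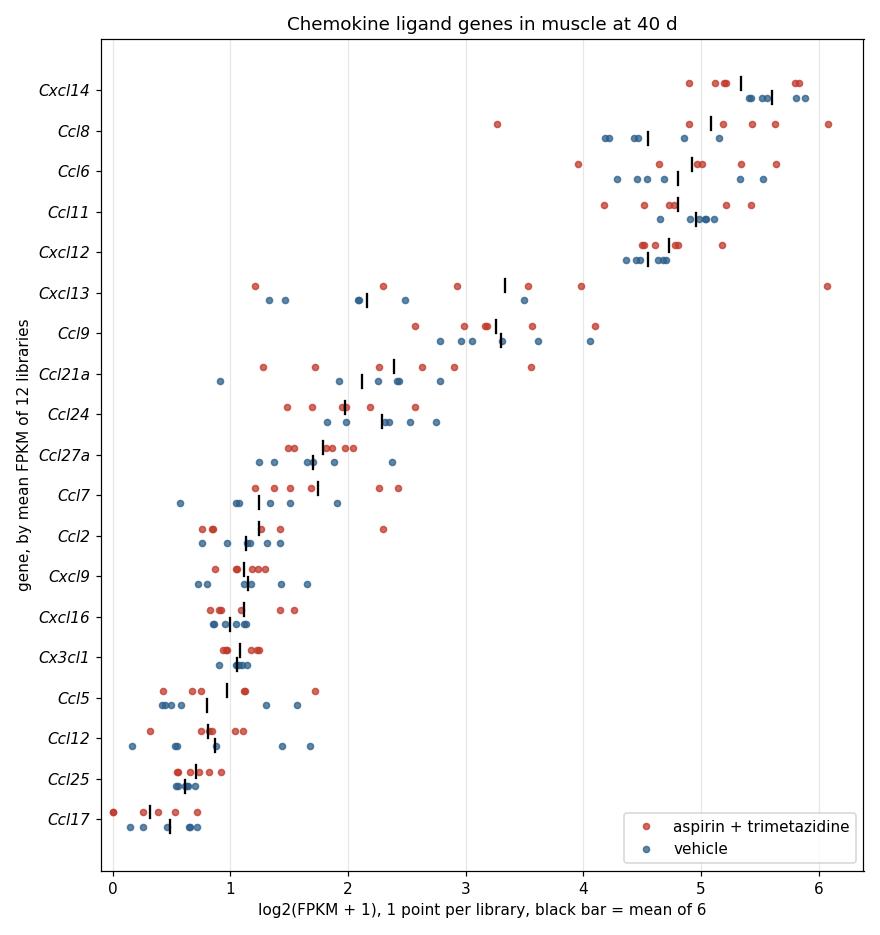
Each point is the log2(FPKM + 1) of 1 of 19 chemokine ligand genes in 1 muscle at 40 d, with 6 treated (red, upper row) and 6 vehicle (blue, lower row) libraries and a black bar at each mean. The groups overlap for every gene, and Cxcl14 and Ccl8 have the highest mean FPKM over the 12 libraries.

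**Figure D4:**
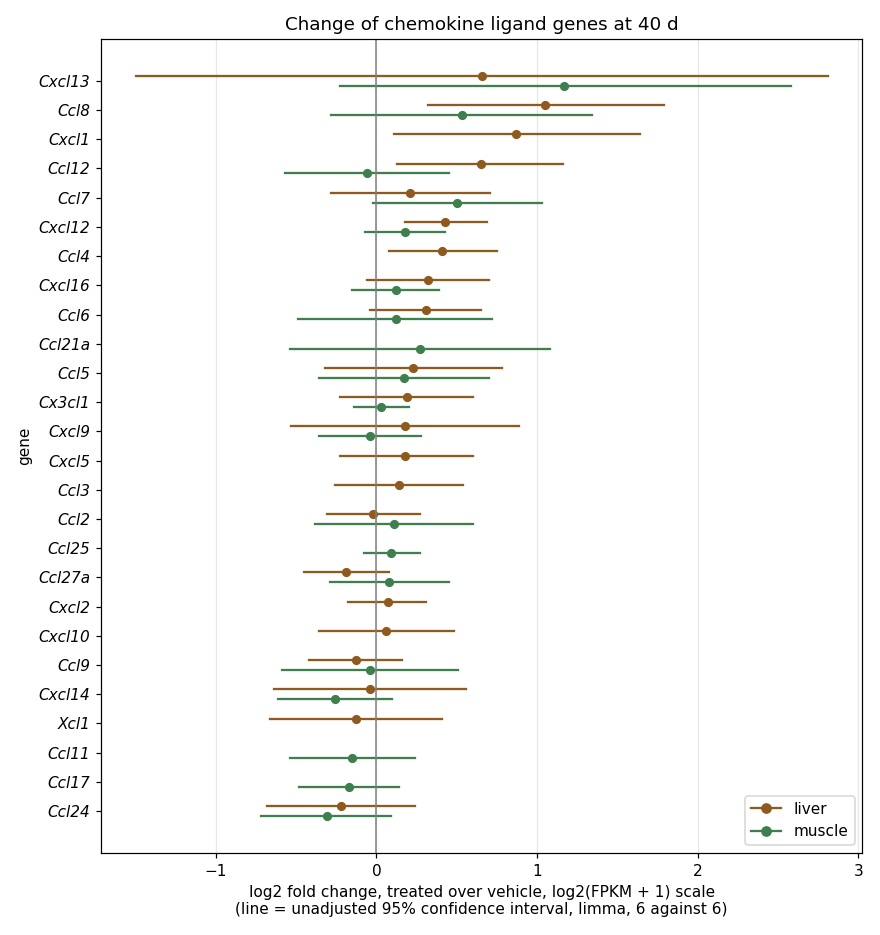
Log2 fold change, treated over vehicle, of the 26 genes at 40 d in liver (brown) and muscle (green), on the log2(FPKM + 1) scale, with the unadjusted 95% interval as a line. In liver the intervals of Cxcl12, Ccl8, Ccl12, Ccl4 and Cxcl1 lie above 0, and in muscle every interval includes 0.

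Of the 26 genes, 24 reached 0.5 FPKM in at least 1 of the 2 livers at 24 h. Of these, 13 were higher and 10 lower in the treated liver and Cxcl10 had a log2 ratio of 0.0, with a median log2 ratio of 0.05. At least 2-fold higher on the log2(FPKM + 1) scale were 3 genes (Cxcl1, Ccl8 and Cxcl13), against 1.14% of 15025 genes, and 2 were at least 2-fold lower (Xcl1 and Ccl3), against 1.26%. Of the 23 that reached it in muscle, 14 were higher and 9 lower, with a median of 0.12. Of the 18 other chemokine ligand genes, only Ccl22 reached 0.5 FPKM in a library at 24 h, with 1.25 FPKM in the treated liver and 1.64 FPKM in the vehicle liver. The 2 muscle genes that were at least 2-fold higher were Cxcl9 and Ccl5, against 2.62% of 14937 genes, and the 2 that were at least 2-fold lower were Ccl21a and Ccl8, against 1.49%. With 1 library per group, the values have no replicate check, and the intervals cover counting error only. In other mice and another table, the log2 fold changes of these genes at 40 d were 0.87 for Cxcl1, 1.05 for Ccl8, 0.66 for Cxcl13 (−0.38 without 4_5), −0.13 for Xcl1 and 0.14 for Ccl3 in liver. In muscle they were −0.04 for Cxcl9, 0.17 for Ccl5, 0.27 for Ccl21a and 0.53 for Ccl8, so Ccl3 in liver and Cxcl9, Ccl21a and Ccl8 in muscle had the opposite sign to that at 24 h. None of the 9 passed the test at 40 d.

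**Figure D5:**
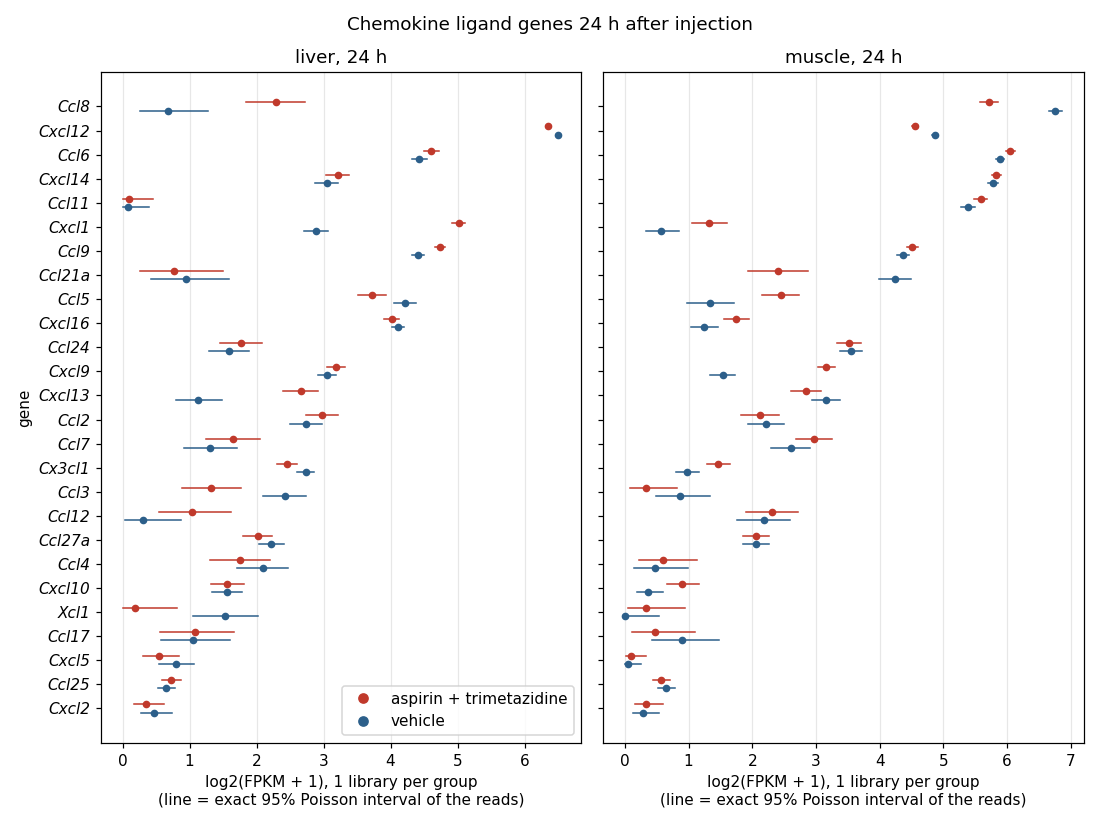
Log2(FPKM + 1) of the 26 genes at 24 h in liver (left) and muscle (right), with 1 treated (red, upper) and 1 vehicle (blue, lower) library each and the exact 95% Poisson interval of the reads as a line. In liver the treated library is set apart as higher for Cxcl1, Ccl8 and Cxcl13 and as lower for Xcl1 and Ccl3. In muscle it is higher for Cxcl9 and Ccl5 and lower for Ccl21a and Ccl8.

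The 24 h table holds both tissues in 1 scale, so levels per length can be set side by side there. In the treated and vehicle livers Cxcl12 was the most abundant (33.4% and 41% of the summed FPKM of the genes reported in liver), while in muscle it was Ccl6 in the treated (20.4%) and Ccl8 in the vehicle library (29.2%). The liver had more Cxcl12, Cxcl16, Cxcl1 and Ccl5 than the muscle of the same treatment, and the muscle had more Ccl8, Ccl11, Cxcl14, Ccl6 and Ccl24. Within the tables at 40 d the summed FPKM of the reported genes was 318 in treated liver 4_5 and 128.1 to 199 in the other treated livers, against 130.7 to 158 in vehicle livers. In muscle it was 292 in treated 4_5 and 150.7 to 235 in the others, against 164 to 210.0 in vehicle muscles. Treated 4_5 was the highest of 12 libraries for 7 of 22 genes in liver and 6 of 19 in muscle, and Ccl2, Ccl6, Ccl9 and Cxcl13 were in both sets. Treated liver 5_3 was highest for 5 others (Ccl4, Ccl7, Cxcl1, Cxcl10 and Cxcl2), and 5_4 was lowest for 6 and highest for 0.

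Other genes of the pathway came from lists chosen with earlier results of these data known. Of 18 chemokine receptors, 7 were tested in liver and 0 were called, against 0.232% of all genes. Of the 7, 4 had a positive log2 fold change, against 50.3% of all genes, with a median of 0.04. The smallest p values of these 7 were those of Ccr1, a receptor of Ccl3 and Ccl6 (1.64 ± 0.714 FPKM in treated and 1.28 ± 0.403 FPKM in vehicle livers, log2 fold change 0.18, adjusted p = 0.733), and Cxcr3 (log2 fold change −0.08). In muscle 3 receptors were tested (Ccr1, Cxcr4 and Ccr2), and 0 were called. Ackr3, an atypical receptor that scavenges CXCL12, averaged 14.6 ± 3.01 FPKM in treated muscles and 18.1 ± 1.94 FPKM in vehicle muscles (log2 fold change −0.31, adjusted p = 0.999). Of 6 atypical receptors, 4 were tested in liver and 6 in muscle, and 0 were called in either. Of the platelet chemokines, which lie outside the name rule, Ppbp averaged 1.54 ± 1.51 FPKM in treated livers and 0.516 ± 0.175 FPKM in vehicle livers (adjusted p = 0.364).

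Among NF-κB feedback and target genes, 12 of 13 tested in liver had a positive log2 fold change, against 50.3% of all genes, with a median of 0.18. Of the 13, 0 were called, against 0.232% of all genes, and 6 were higher at an unadjusted p under 0.05, against 6.18%. Tnfaip3, which encodes the NF-κB inhibitor A20, averaged 2.98 ± 1.0 FPKM in treated livers and 1.75 ± 0.267 FPKM in vehicle livers (log2 fold change 0.50, adjusted p = 0.189). In muscle 11 of 12 were positive, against 49.8% of all genes, with a median of 0.10. There 0 were called, and 3 had an unadjusted p under 0.05, against 4.14%. Among the 3, Il1b averaged 0.602 ± 0.309 FPKM in treated and 0.259 ± 0.124 FPKM in vehicle muscles. Its vehicle mean lay under the 0.5 FPKM of the filter, which it met mainly through treated muscles, so these counts are a description. Of 14 interferon-induced genes in liver, 9 were positive, against 50.3% of all genes, with a median of 0.13. At an unadjusted p under 0.05, 1 was lower, against 6.64% of all genes, and 0 were higher, against 6.18%. Ifit2 had the smallest p (2.22 ± 0.336 FPKM in treated and 3.07 ± 0.35 FPKM in vehicle livers, adjusted p = 0.139). Of 18 proteoglycans and proteases that bind or cut chemokines, 14 were positive in liver, against 50.3% of all genes, with a median of 0.19. At that unadjusted level 5 were higher, against 6.18% of all genes, and 1 was lower, against 6.64%. Among the 5, Mmp9 averaged 0.983 ± 0.911 FPKM in treated and 0.249 ± 0.0988 FPKM in vehicle livers. Mmp8 averaged 0.945 ± 0.79 FPKM in treated and 0.325 ± 0.145 FPKM in vehicle livers. Both vehicle means lay under the 0.5 FPKM of the filter, which these genes met mainly through treated livers, so the counts are a description. Among the positive was Sdc4, a cell-surface heparan sulfate carrier (99 ± 16 FPKM in treated and 76.9 ± 3.16 FPKM in vehicle livers, adjusted p = 0.202). In muscle 4 of 17 were positive, against 49.8% of all genes, with a median of −0.05. In both lists 0 genes were called in either tissue, against 0.232% of all genes in liver and 0.0% in muscle.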

How the data were processed

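Per the labels' protocols, RNA from 28 liver and muscle samples was extracted with Trizol, checked on a Bioanalyzer and made into libraries with a NEBNext Ultra kit. The authors deposited FPKM values, per the file headers, in 3 tables, 1 for each tissue at 40 d and 1 for 24 h, with the exonic length of each gene. The submitters' processing notes name GRCm38 and mm10. The aligner, counter and strand setting were not given in the sources used here. Since each table was normalized on its own, tests stay within a table. Every one of the 28 sample columns entered the work.

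Multiplied by exonic length, the deposited FPKM values gave whole reads in 100.0% of cases (tolerance 0.01), and these reads are the counts quoted. Low genes rest on few reads, and intervals for single libraries are exact Poisson or binomial intervals at 95% that cover counting error only.

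Groups were taken from the labels. A gene entered the test of a tissue with 0.5 FPKM or more in 3 or more libraries out of 12. Values of log2(FPKM + 1) were fitted by limma 3.58.1 in R 4.3.3 with a variance trend, and the two-sided p-values of 6 treated against 6 vehicle libraries were adjusted by Benjamini and Hochberg's method over all genes of the tissue, with a threshold of 0.05. A fold change on this scale understates that of low genes. The effects in liver and muscle were set against each other by a contrast over 24 libraries in 1 fit. At 24 h no test was made, and the log2 ratio of FPKM + 1 was formed for genes with at least 0.5 FPKM in either library. Alternatives were other pseudocounts, no filter, a scaling by trimmed means of M-values (TMM), limma's voom on the recovered reads, an exact permutation test over the 924 relabellings, each library left out, and the library number as a replicate block. The fits were tested on simulated data. The p-values measure the spread between these libraries, which the labels number as separate mice.

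The genes, gene lists and marker lists were chosen with earlier results of these data known. Ranges over the libraries of each group are given for the 8 genes with the smallest p in each tissue and the 6 with the highest mean in each. Most other genes are given by means, since none passed the threshold. Promoter sequences are those of RefSeq on GRCm38.p6. One result of the wider pathway is not reported here.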

Additional observations from a re-analysis of the deposited data

Results flagged for a closer look

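Within groups of 6, libraries were compared by log2(FPKM + 1), and the FPKM values are printed below. A library was singled out where its gap on that scale to the nearest other library exceeded Dixon's critical share of the range of the group. Of 82 groups of values looked at, 5 met this, and chance gives about 1 in 20 groups. Cxcl13 was 108.2 FPKM in treated liver 4_5, where the 5 other treated livers had 0.194 to 1.11 FPKM, and 7.891 FPKM in vehicle liver 2_1, where the 5 other vehicle livers had 0.091 to 1.09 FPKM. Cxcl12 was 25.71 FPKM in treated liver 4_5, below the 36.5 to 43 FPKM of the others. Cxcl16 was 20.23 FPKM in the same liver, above the 8.28 to 11.5 FPKM of the others. Cxcl9 was 16.85 FPKM in vehicle liver 2_3, above the 5.08 to 7.79 FPKM of the others.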

How the results depend on the processing

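No chemokine ligand gene was called in muscle or in the difference between tissues under any alternative that adjusts over all genes. In liver Cxcl12 was the 1 chemokine gene called without treated 4_5, where 27 of all genes were called, and without 4_5 and 5_2 together, a setting chosen after seeing the data, where 143 of all genes were called. The exact permutation test put 4 liver genes under an unadjusted p of 0.05 (Cxcl12, Ccl8, Ccl12 and Ccl4), all higher, against 6.15% of all genes. With no filter 0 of all genes were called in liver. Leaving out 1 library gave 0 to 1 genes of the family and 0 to 80 of all genes in liver (80 without treated 5_2, 0 without treated 5_3 or vehicle 2_3), 0 to 1 of all in muscle, and 0 to 2 for the difference. For the difference, 2 genes were called with a pseudocount of 0.1 and 2 with 0.25. At 24 h, 4 muscle genes were at least 2-fold higher with a pseudocount of 0.1 and 4 with 0.25. The share of all genes was not taken at these pseudocounts, which raise the ratios of low genes, so these counts have no background.

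Equal numbers in liver and muscle were not shown to pair the libraries, since same-numbered deviations correlated at −0.07 to 0.40, above 0.1 in 6 of 12 numbers, and 7 of 12 correlated best with their own number. With the number as a replicate block, 0 chemokine genes and 3 of all genes were called for the difference.

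Signs turned for the genes below. Without 4_5 and 5_2 together, the log2 fold change was −0.51 for Cxcl13, 0.19 for Cxcl14 and −0.04 for Cxcl5 in liver, and 0.01 for Ccl12 and −0.06 for Ccl2 in muscle. Muscle Ccl12 was 0.03 with a pseudocount of 0.1 and 0.05 with voom. The difference was −0.11 for Ccl5 and −0.03 for Ccl24 with a pseudocount of 0.1, and −0.05 for Ccl5 with 0.25. Over single libraries left out, liver values that crossed 0 ran from −0.38 to 1.10 for Cxcl13, −0.10 to 0.04 for Ccl2, −0.19 to 0.13 for Cxcl14, −0.30 to 0.00 for Xcl1 and −0.05 to 0.18 for Cxcl10. In muscle they ran from −0.02 to 0.31 for Ccl6, −0.20 to 0.12 for Ccl9, −0.01 to 0.21 for Ccl27a, −0.10 to 0.21 for Ccl2, −0.12 to 0.06 for Cxcl9 and −0.20 to 0.10 for Ccl12. For the difference they ran from −0.20 to 0.02 for Ccl9, −0.15 to 0.32 for Ccl5, −0.23 to 0.01 for Ccl2, −0.11 to 0.29 for Ccl24 and −0.02 to 0.25 for Cx3cl1. Leaving out 1 library moved the log2 fold change by over 1.5 times, or turned it, for 15 of 22 genes in liver and 17 of 19 in muscle. The causes were not tested. Depth limits Ccl12, Ccl17 and Xcl1 most, with 36 to 109 reads over 12 libraries.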
